A study of Mus musculus with 46 samples.

Results

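Mirtrons are miRNAs whose hairpin is a short intron, and the arms of the mouse mirtrons miR-877, miR-1224, miR-1981, miR-3102 and miR-6769b were followed through the storage of tissue before RNA isolation. Their members were chosen by name, as every arm of these hairpins on the array. This gave 12 of the 1881 miRNAs on the array: mmu-miR-877-5p, mmu-miR-877-3p, mmu-miR-1224-5p, mmu-miR-1224-3p, mmu-miR-1981-5p, mmu-miR-1981-3p, 4 arms of miR-3102, mmu-miR-6769b-5p and mmu-miR-6769b-3p. The names were proposed after miR-6769b-5p had stood out for its relation to storage time at room temperature (RT), and miR-877-5p for its difference between liver RNA of low and high quality. Values of those contrasts, and of the RNA integrity number (RIN) that runs along with them, are therefore given for all members as a description with no p. Where a count of calls is given for these 3 contrasts, it says how the fit across all miRNAs classed the arms, beside the share of all miRNAs classed the same way, and nothing is read from it.

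Heart, liver and brain of male C57BL6 mice of an Il1a knock-out strain were cut into pieces after death and kept at 4 °C or at RT, and the time before fixation ran from 0 h to 96 h. Of the 46 arrays, that of heart at 4 °C and 0 h was left out because the study judged it of low quality, and there remained 7 heart, 6 liver and 8 brain arrays at 4 °C and 8 arrays of each tissue at RT. All arrays of a tissue and temperature are pieces of 1 organ on 1 slide, and by the study's methods the heart, liver and brain of a temperature are of the same animal, so the arrays come from 2 animals. Animal, slide and temperature cannot be told apart within a tissue, no time point has a replicate, and p-values measure the spread between such pieces. All groups carry the knock-out and no unmutated strain was among the samples, liver at 4 °C has no array of 6 h or 96 h here, and the 12 h of the labels is 14 h in the study's methods.

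In the usual pathway the nuclear enzyme Drosha cuts a miRNA hairpin out of a longer transcript and Dicer then removes its loop. A mirtron skips Drosha: the spliceosome releases the intron as a lariat, debranching lets it fold into a hairpin, and Dicer cuts this into a 5p and a 3p arm. Because the ends of the hairpin are splice sites, the 5p arm of a typical mirtron starts with the GU of the splice donor and the 3p arm ends at or near the AG of the acceptor, behind a stretch rich in C and U. The 5p arms of many mirtrons are rich in G in turn.

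The mature sequences of 11 of the 12 arms were found in RefSeq (build GRCm38.p6), and that of miR-6769b-3p was not. They are shown because the arms of 1 hairpin had very different base composition and, as described below, different courses. The seed, bases 2 to 8, is in capitals, and each sequence is written 5′ to 3′.

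mmu-miR-877-5p: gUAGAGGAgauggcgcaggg
mmu-miR-877-3p: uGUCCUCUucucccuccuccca
mmu-miR-1224-5p: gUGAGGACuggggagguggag
mmu-miR-1224-3p: cCCCACCUcuucucuccucag
mmu-miR-1981-5p: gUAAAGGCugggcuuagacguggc
mmu-miR-1981-3p: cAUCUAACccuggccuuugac
mmu-miR-3102-5p: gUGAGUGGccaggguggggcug
mmu-miR-3102-5p.2-5p: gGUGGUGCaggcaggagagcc
mmu-miR-3102-3p.2-3p: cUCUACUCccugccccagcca
mmu-miR-3102-3p: gAGCACCCcauuggcuacccaca
mmu-miR-6769b-5p: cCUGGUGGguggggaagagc

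No seed was shared between members. Of the 1679 mature names in the table, only miR-702-5p, which was not among the miRNAs analysed, shared a seed with a member, namely miR-3102-5p. G made up 55.0% of the bases of miR-877-5p and 4.5% of those of miR-877-3p, and 61.9% against 4.8% in miR-1224. The 5p arms of miR-3102 adjoin each other, as do its 3p arms, the former with 59.1% and 52.4% G and the latter with 9.5% and 17.4%, and G made up 55.0% of miR-6769b-5p. Among the miR-1981 arms the values were 41.7% and 14.3%.

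Hairpins of 4 of the mirtrons were in the table and are shown for their intron ends, with the measured arms that have a mature entry in capitals.

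Mir877: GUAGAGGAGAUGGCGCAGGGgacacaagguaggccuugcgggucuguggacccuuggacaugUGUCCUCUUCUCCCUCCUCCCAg
Mir1224: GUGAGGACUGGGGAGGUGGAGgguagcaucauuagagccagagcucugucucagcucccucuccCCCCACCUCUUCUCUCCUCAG
Mir1981: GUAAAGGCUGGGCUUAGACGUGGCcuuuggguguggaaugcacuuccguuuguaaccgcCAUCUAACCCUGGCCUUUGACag
Mir6769b: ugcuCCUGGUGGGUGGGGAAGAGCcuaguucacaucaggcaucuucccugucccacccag

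The hairpins of Mir877, Mir1224 and Mir1981 run from GU to AG, and their 5p arms start at the first base. The hairpin of Mir6769b ends in AG as well but opens with UG, and its 5p arm starts at base 5. By position in GRCm38.p6, Mir877 (chr17:35960730-35960814) lies within Abcf1, Mir1224 (chr16:20604452-20604536) within Vwa5b2, Mir1981 (chr1:184822407-184822488) within Mtarc2 and Mir3102 (chr7:100882306-100882409) within Arhgef17. Mir6769b (chr8:71631047-71631106) lies within the spans of Unc13a and of the lncRNA Gm39195. The gene table used holds neither exons nor the strand of these hosts, so whether each hairpin is exactly an intron, and whether it is conserved, was not tested.

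Each array detected 268 to 798 miRNAs, whose signals added up to between 153088 and 541770 units, with 0 saturated miRNA spots, and RIN ranged from 2.2 to 9.1. Values are log2 signals after variance stabilizing normalization (VSN), which puts the arrays on a common scale. Marker miRNAs fitted the tissue labels: the liver miRNA miR-122-5p was at 11.14 or more on every liver array and at 7.34 or less elsewhere, and the muscle miRNAs miR-1a-3p and miR-133a-3p and the neural miR-124-3p and miR-9-5p likewise did not overlap between their tissue and the others. The red blood cell miRNA miR-451a was between 12.10 and 14.94 in heart, 5.99 and 10.89 in liver and 8.93 and 11.14 in brain; the part of blood in the members' values was not tested. A miRNA was analysed if the scanner software called it detected on at least 5 of 45 arrays, which 815 miRNAs were. The 12 arrays with RIN of 6 or lower counted towards this limit, so a miRNA detected only in degraded RNA could pass it. Shares of miRNAs classed as higher at low RIN or with time at RT are therefore partly set by this filter.

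Of the 12 arms, 9 were analysed. Detected on all 45 arrays were miR-877-3p, miR-1224-5p, miR-3102-5p and miR-6769b-5p, followed by miR-3102-5p.2-5p on 42, miR-3102-3p on 33, miR-877-5p on 24 and miR-6769b-3p on 17. Just inside the limit was miR-3102-3p.2-3p with 8 arrays, and just outside it miR-1981-5p with 4. Both miR-1224-3p and miR-1981-3p were detected on 0 of 45 arrays. Thus the only arm of miR-1224 that could be followed was the 5p arm, and miR-1981 could not be followed at all.

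Whether the arms differed between tissues was tested on the 33 arrays with RIN above 6, called intact here: 13 of heart, 6 of liver and 14 of brain, all of the same 2 animals. The 6 liver arrays are also the high-quality side of the liver contrast on which miR-877-5p was singled out. The intact arrays of storage at RT are likewise part of the RT contrast for which miR-6769b-5p stood out. For these arms the test is therefore not independent of the choice. With limma and the slide as a random block, 6 of the 9 arms differed over the 3 tissues, or 66.7%, beside 85.2% of all 815 miRNAs. The clearest difference was that of miR-3102-3p. It was detected on all intact heart and brain arrays, at 3.50 ± 0.33 (SD, n = 13) and 3.98 ± 0.28 (n = 14), and on 0 of 6 intact liver arrays, which were at 1.57 ± 0.46. Because liver was not above background, the size of the difference is not exact. Taken against the lowest detected signal of the liver arrays, the arm was 3.32-fold higher in heart and 4.65-fold higher in brain. As an undetected arm can lie above that signal, these folds are no strict lower bounds. The differences of the measured values passed the test (limma, adjusted p = 4.39e-11 and 3.63e-14). Liver was below both in all 12 alternatives run for these differences.

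Another arm of that hairpin, miR-3102-5p.2-5p, was at 5.20 ± 0.61 in brain, 4.52 ± 0.56 in heart and 3.28 ± 0.77 in liver, where 3 of 6 arrays detected it. Brain exceeded liver by 1.93 (SE 0.31, adjusted p = 1.50e-06) and heart by 0.68 (SE 0.25, adjusted p = 0.0166), and liver differed from heart by -1.25 (SE 0.32, adjusted p = 0.00129). Under quantile normalization brain was below heart, with a difference of -0.22, and the arm no longer differed over the 3 tissues (adjusted p = 0.151, the highest over the alternatives, whose lowest was 3.85e-08). The difference of liver from heart was -0.66 with 75th percentile scaling (adjusted p = 0.0969, again the highest, with a lowest of 2.66e-05) and -0.53 with quantile normalization, and neither was called. That of brain from liver was 0.31 with quantile normalization and not called either (adjusted p = 0.288, the highest, with a lowest of 8.73e-09).

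Heart had the highest level of miR-1224-5p, at 9.33 ± 0.21, against 8.92 ± 0.48 in liver and 8.72 ± 0.29 in brain. The difference of brain from heart was -0.61 (SE 0.13, adjusted p = 1.44e-04). For miR-6769b-5p the order was heart at 7.22 ± 0.21, brain at 6.75 ± 0.21 and liver at 6.59 ± 0.47, with a difference of brain from heart of -0.46 (SE 0.12, adjusted p = 0.00129). Liver was also below heart for both arms, by -0.42 (adjusted p = 0.033) and -0.63 (adjusted p = 9.66e-04), but under 75th percentile scaling these differences turned to 0.28 and 0.07, and under quantile normalization to 0.74 and 0.69. With VSN, the median of all 815 miRNAs was itself lower in liver than in heart by -0.60, and with 75th percentile scaling by -0.02. With the left-out heart array included, neither arm was called over the 3 tissues (adjusted p = 0.0803 and 0.136, the highest over their alternatives, whose lowest were 3.11e-08 and 6.66e-09).

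In brain, miR-3102-5p was lowest, at 5.86 ± 0.32, against 6.41 ± 0.27 in heart and 6.45 ± 0.56 in liver (adjusted p = 0.00195 and 0.00704), although without any scaling the difference of brain from liver was 0.02, and with the left-out heart array the difference from heart was not called (adjusted p = 0.0834, the highest over the alternatives, whose lowest was 9.60e-12). Both arms of miR-877 missed the threshold in the main analysis. The 5p arm was at 2.01 ± 0.48 in heart, 2.09 ± 0.85 in liver and 1.78 ± 0.95 in brain and was detected on 3 of 13, 3 of 6 and 6 of 14 intact arrays (adjusted p = 0.681, 0.0393 to 0.696 over the alternatives). The 3p arm was at 3.03 ± 0.38, 3.20 ± 0.68 and 2.94 ± 0.22 (adjusted p = 0.491, 1.21e-04 to 0.541). Quantile normalization called both arms. The 3p arm was also called with 75th percentile scaling, and with normexp and summed probe signals, which were both followed by VSN. The 3p arm miR-3102-3p.2-3p passed the test but was detected on none of the 33 intact arrays, so no fold is given, and miR-6769b-3p did not pass (adjusted p = 0.915, 0.00631 to 0.963 over the alternatives), except with quantile normalization.

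**Figure D1:**
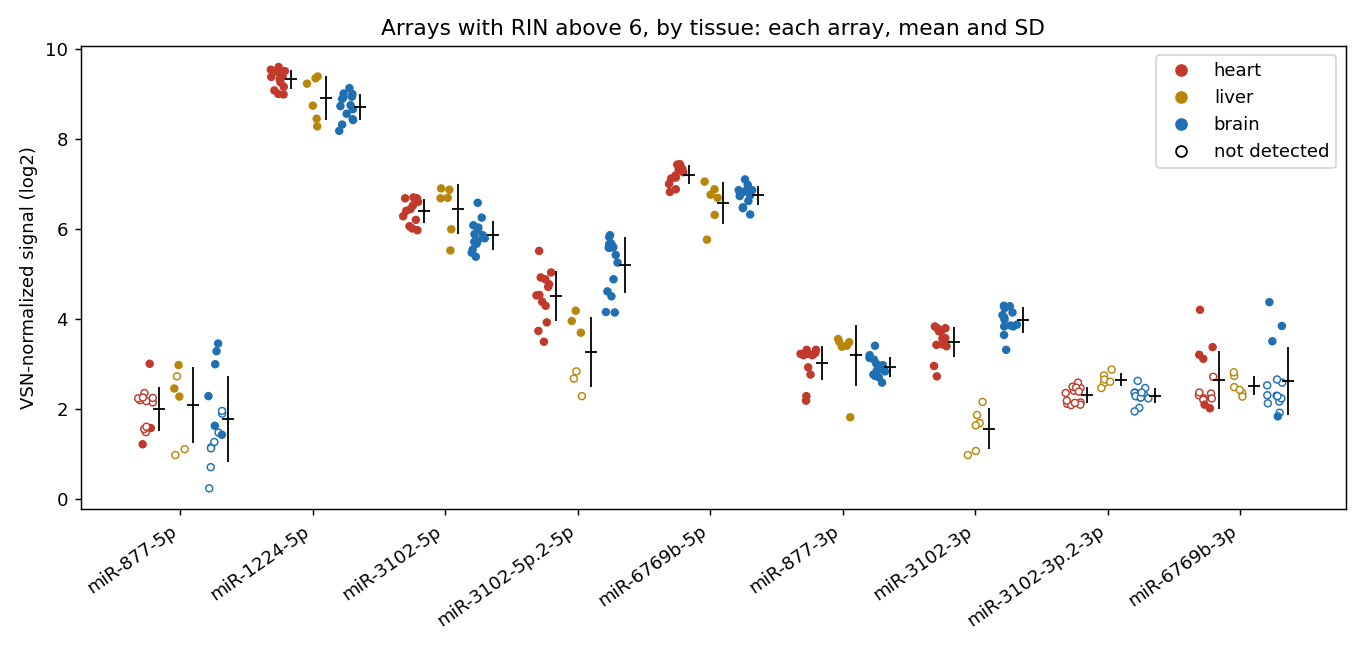
VSN-normalized log2 signal (vertical axis) of the 9 analysed arms on the 33 intact arrays, by tissue. Points are arrays, open where the arm was not detected, and bars are the mean and SD; the liver points of miR-3102-3p are all open and lie below every heart and brain point.

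Storage at 4 °C was tested as a slope on hours within tissues over 21 arrays. This slope was not itself used to choose the members, but its 6 liver arrays are also part of the liver contrast on which miR-877-5p was singled out, so for that arm the test is not independent of the choice. Of the 9 arms 2 rose, miR-3102-5p.2-5p and miR-6769b-3p, or 22.2%, beside 10.8% of all 815 miRNAs that rose. In brain, miR-3102-5p.2-5p was at 4.15, 4.51, 4.89, 5.26, 5.43, 5.59, 5.68 and 5.87 at 0, 1, 3, 6, 12, 24, 48 and 96 h, and each value lay above the one before. In heart it was at 3.93, 4.30, 4.39, 4.78, 4.89, 4.72 and 4.93 from 1 h to 96 h. Liver had 2.68 at 0 h and 2.29 at 1 h, neither detected, then 3.70, 3.96, 4.19 and 4.91 at 3, 12, 24 and 48 h. The RIN of these brain and heart pieces stayed between 7.3 and 8.8. The fitted change over 96 h was 1.34 (SE 0.39, limma, adjusted p = 0.0263) and became 2.72 when the 96 h arrays were left out. With the left-out heart array of 0 h included it was 1.68 and not called.

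The other arm that rose, miR-6769b-3p, did so on its last arrays. It was between 2.02 and 3.12 in heart from 1 h to 48 h and at 4.21 at 96 h, and between 1.84 and 2.31 in brain from 0 h to 48 h and at 4.38 at 96 h. In liver, which has no 96 h array at 4 °C, it stayed between 2.36 and 2.82 and was not detected. The fitted change of 1.69 over 96 h (SE 0.31, adjusted p = 0.00138) fell to 0.25 without the 96 h arrays (adjusted p = 0.833, the highest over the alternatives, whose lowest was 3.99e-05), and the arm was not called on log2(hours + 1) either. Its 5p arm had a change of 0.05 (SE 0.24, adjusted p = 0.931), and miR-1224-5p one of -0.14 (SE 0.22, adjusted p = 0.754), and neither passed the test.

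Under the same test miR-877-5p had a fitted change of 1.5 over 96 h (SE 0.54, adjusted p = 0.0718), which became 3.47 and was called without the 96 h arrays. Taken by tissue, the lines came to -0.23 in heart, 2.25 in brain and 5.27 in liver, and the moderated F test for a difference in slope between tissues called it (adjusted p = 0.0231, 0.0133 to 0.738 over the alternatives), beside 7.48% of all miRNAs. The liver line ends at the 48 h array, which had a RIN of 3.4 and a value of 4.64 and is one of the low-quality arrays on which miR-877-5p was singled out. That test is therefore no independent support. Some low values of this arm also depended on how the signal was defined, as described in the processing section, and with summed probe signals, with quantile normalization and with the left-out heart array the difference in slope was no longer called.

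At RT the arms of the same hairpin followed different courses. From 0 h to 96 h, miR-877-5p on the liver arrays was at 0.98, 1.5, 4.00, 6.54, 7.79, 7.93, 8.72 and 9.02, already above every intact 4 °C liver array from 3 h on. Detection began at 1 h, so the change is not exact. Against the lowest detected signal at 0 h it was 178-fold. This is no strict lower bound, as an undetected arm can lie above that signal. On the same 0 h array miR-3102-5p.2-5p was not detected at 2.84. In heart the arm lay between 1.56 and 3.01 up to 24 h and was at 5.41 at both 48 h and 96 h. Brain gave 2.29, 3.29, 4.11 and 5.72 at 12, 24, 48 and 96 h after values of at most 1.96. On the same arrays miR-877-3p stayed between 2.29 and 3.23 in heart, 2.82 and 4.65 in liver and 2.39 and 3.41 in brain. From 0 h to 96 h it moved by 0.21, 0.47 and -1.02 in heart, liver and brain.

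A late course was seen for miR-1224-5p. In liver it lay between 8.29 and 9.43 up to 24 h, was at 10.26 at 48 h and reached 14.28 at 96 h, which is 63.7-fold over 0 h. Brain was between 8.19 and 9.14 up to 48 h and at 12.76 at 96 h, or 14.1-fold over 0 h. Heart moved least, between 8.99 and 9.34 up to 48 h and at 9.98 at 96 h, or 1.63-fold. Without the 96 h arrays the fitted change over 96 h fell from 3.19 (SE 0.54) to 0.92 and the arm was no longer called.

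The course of miR-6769b-5p was late in heart and brain and came in steps in liver. Liver held between 6.47 and 6.70 up to 3 h, between 8.09 and 8.22 from 6 h to 48 h, and 10.67 at 96 h. Brain values were 6.99, 7.11, 7.74 and 11.16 at 12, 24, 48 and 96 h, and those of heart 6.89, 7.98 and 9.84 at 24, 48 and 96 h. From 0 h to 96 h this gave 6.43-fold in heart, 15.6-fold in liver and 21.3-fold in brain. The opposite arm, miR-6769b-3p, was at 3.21, 3.38 and 3.56 in heart at 12, 24 and 48 h. Before that it was at most at 2.24, or 2.81 with summed probe signals. In brain it was at 3.85, 3.51 and 3.32 at these times, after at most 2.66. At 96 h it was back at 1.29 in heart and 0.88 in brain, or 1.95 and 1.60 with summed probe signals. In liver it never exceeded 2.52. Before scaling between arrays, its probes read higher at 96 h than at 0 h. The ratio was 2.26 in heart, 1.54 and 1.59 in brain and 3.56 and 4.08 in liver.

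Both 5p arms of miR-3102 were higher after storage at RT in every tissue, but at different times. In liver, miR-3102-5p was at 5.53, 6.40, 6.65, 7.50, 7.91, 8.18, 8.81 and 12.92, each above the one before, a change of 169-fold. It stayed at 6.71 or less in heart up to 24 h and was at 7.92 and 8.09 after that, and in brain it went from 5.48 to 6.59 at 24 h and 7.77 at 96 h. Changes from 0 h to 96 h were 4.05-fold in heart and 4.89-fold in brain. For miR-3102-5p.2-5p the values moved within the first hours: 3.50, 3.74, 5.04 and 5.52 in heart at 0, 1, 3 and 6 h, and 4.16, 4.62, 5.59 and 5.83 in brain. The RIN of these 8 pieces was between 8.0 and 9.0. In heart it then came back to 4.54 and 4.53 at 12 h and 24 h before 6.04 and 6.67 at the end, and in liver it was at 6.33 at 6 h and 6.93 at 96 h.

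The 3p arms of miR-3102 went several ways. On the heart arrays miR-3102-3p was at 3.47 at 0 h, 2.91 at 48 h and 1.37 at 96 h, or 1.90 at 96 h with summed probe signals. In brain it was at 3.84 and 3.91 at 0 h and 96 h. Liver gave no detection up to 24 h, then 2.61 at 48 h and 6.44 at 96 h, the same late arrays on which miR-1224-5p and miR-3102-5p were highest. The remaining arm, miR-3102-3p.2-3p, was detected in liver from 6 h on, at 2.80, 2.89, 3.23, 3.81 and 3.63, but the liver arrays that did not detect it, at both temperatures, reached 2.88.

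**Figure D2:**
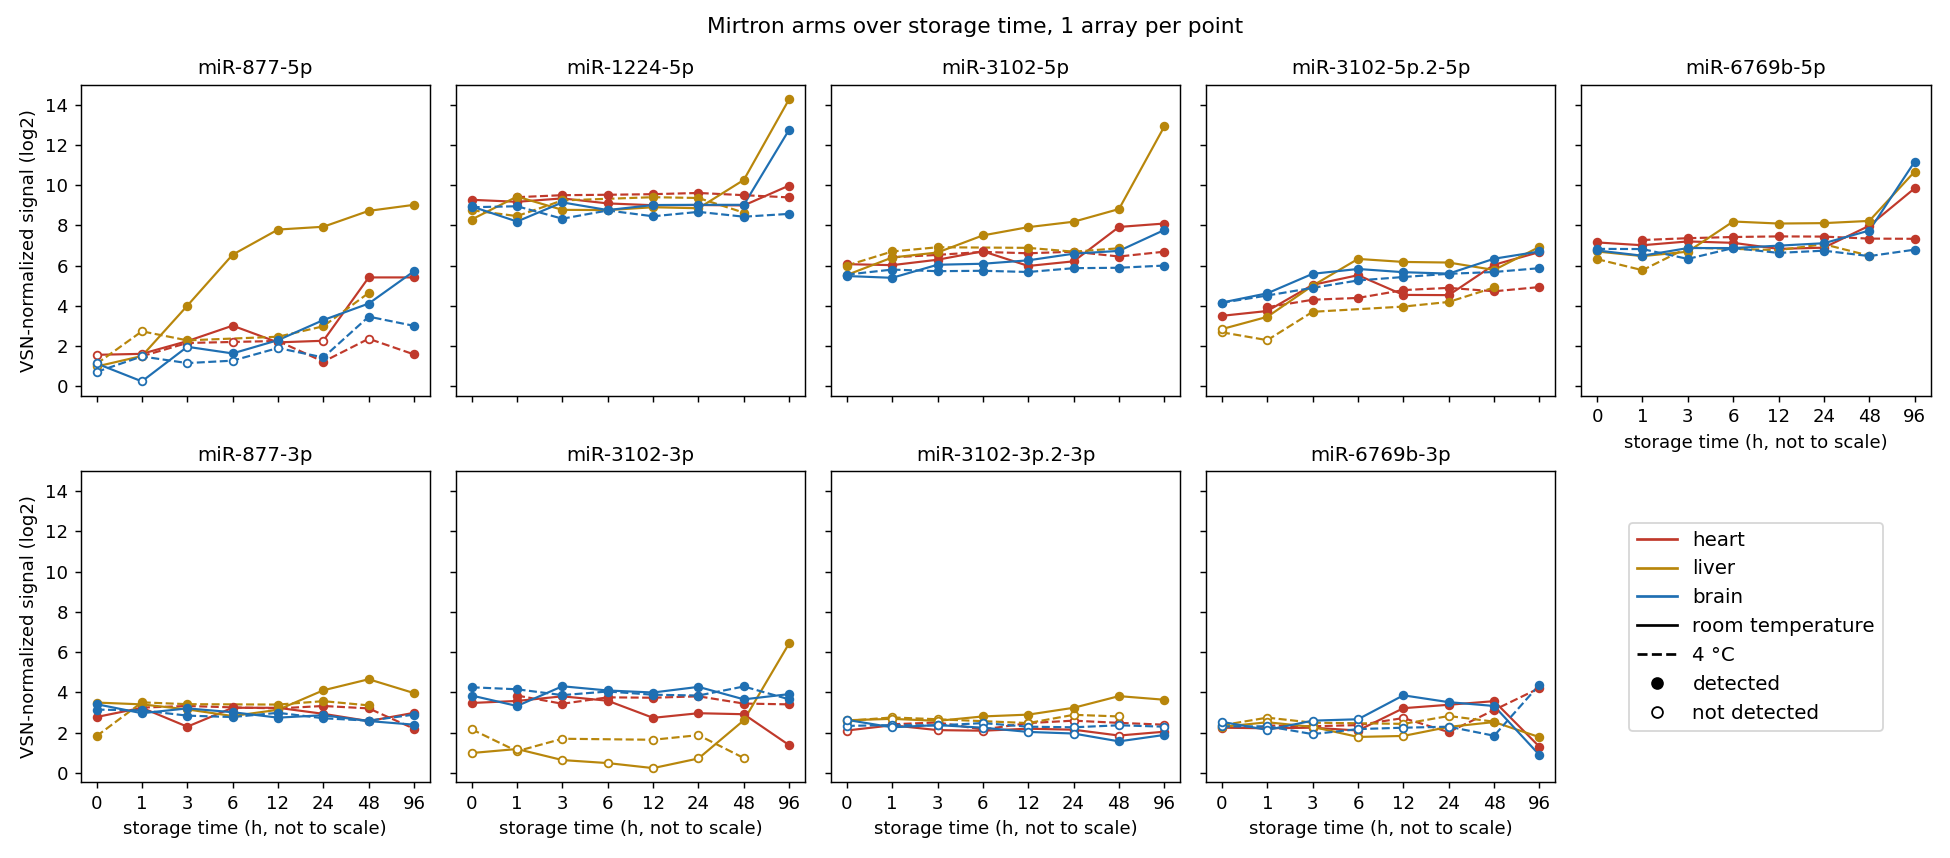
VSN-normalized log2 signal (vertical axis) of the 9 analysed arms by storage time in hours (horizontal axis, evenly spaced), 1 array per point, with tissues in colour, RT as solid and 4 °C as dashed lines; open points were not detected. The 5p arms in the upper row end above their start at RT in every tissue, miR-1224-5p in liver and brain mainly at 96 h, while miR-877-3p below stays between 1.82 and 4.65 on all arrays.

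Set against each other, the 5p arm ended higher relative to its start than the 3p arm in all 12 comparisons of an arm pair within a tissue at RT. Values below detection were taken as measured. The pairs of miR-877 and miR-6769b hold the arms that prompted the list, so their outcome was partly fixed by the choice. All 12 comparisons are of the same animal, and other arm pairs on the array were not counted, so nothing is read from the count. Both arms were detected at both ends in only 2 of these comparisons, miR-3102-5p and miR-3102-3p in heart, with a gap of 4.12, and in brain, with a gap of 2.22. The heart gap rests on miR-3102-3p at 1.37 at 96 h, which was at 1.90 with summed probe signals. In the fit over the 3 tissues, 5 of the 9 arms were classed as higher with time at RT, or 55.6%, beside 40.7% of all miRNAs, and these were the 5 analysed 5p arms. The fitted changes over 96 h were 5.04 (SE 0.90) for miR-877-5p, 3.51 (SE 0.51) for miR-3102-5p, 3.49 (SE 0.35) for miR-6769b-5p, 3.19 (SE 0.54) for miR-1224-5p and 2.32 (SE 0.53) for miR-3102-5p.2-5p, where the median of all 815 miRNAs was 0.27. Among the 3p arms they lay between -0.73 and 1.16, with a standard error of up to 0.74, and none was called. Without any scaling between arrays the median of all miRNAs was 1.42, and 8 of the 9 arms were called. The added ones were the 3p arms miR-877-3p, miR-3102-3p and miR-3102-3p.2-3p, so the lack of calls among the 3p arms depends on the scaling.

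**Figure D3:**
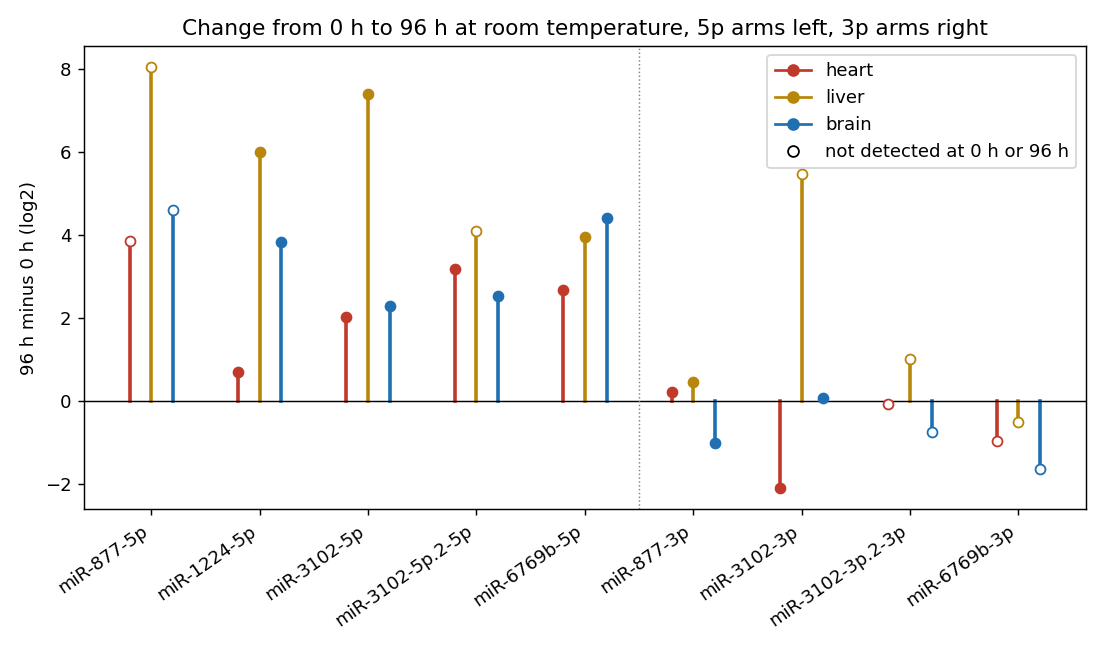
Difference in log2 signal between 96 h and 0 h at RT (vertical axis) for each analysed arm, 1 line per tissue from 1 array at each time, with an open point where the arm was not detected at 0 h or 96 h, so that the length is not exact. All 15 lines of the 5p arms point up, the 11 with filled points from 0.70 to 7.40, while the 5 filled ones of the 3p arms range from -2.10 to 0.47. The lowest, miR-3102-3p in heart, ends at 1.37, or at 1.90 with summed probe signals. Among the open 3p lines, those of miR-3102-3p and miR-3102-3p.2-3p in liver point up, by 5.46 and 1.02. The other open 3p lines lie between -1.64 and -0.06. No share of all miRNAs stands beside these lines, and nothing is read from their number.

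RIN, which runs from 10 for intact RNA to 1, combined time, temperature and tissue into 1 axis. Over all 45 arrays and within tissues, 5 of the 9 arms, again the 5p arms, were classed as higher at lower RIN, beside 45.9% of all miRNAs. For each 5 RIN units lost the fitted change was 4.26 (SE 0.36) for miR-877-5p, 2.17 (SE 0.23) for miR-3102-5p.2-5p, 1.97 (SE 0.26) for miR-6769b-5p, 1.86 (SE 0.31) for miR-3102-5p and 1.11 (SE 0.36) for miR-1224-5p. The median of all miRNAs was 0.17, and by this change miR-877-5p was 28th of 815 and miR-1224-5p 311th. Among the 3p arms the changes were 0.11 (SE 0.18) for miR-877-3p, 0.06 (SE 0.13) for miR-3102-3p.2-3p, -0.31 (SE 0.35) for miR-3102-3p and -0.37 (SE 0.26) for miR-6769b-3p. The call of miR-1224-5p was lost with 75th percentile scaling and with quantile normalization. On the intact arrays alone 0 of the 9 arms and 2 of all 815 miRNAs were called by limma, and 3 of the 9 and 156 of the 815 had an unadjusted p under 0.05.

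Individual arrays show how this axis and storage time part. On the 12 arrays with RIN of 6 or lower, miR-877-5p lay above every intact array of its tissue on 2 of 2 heart, 7 of 8 liver and 2 of 2 brain arrays. For miR-1224-5p this held on 1 of 2, 3 of 8 and 1 of 2. RIN of liver at RT was between 2.3 and 2.8 from 6 h to 96 h. Over these 5 arrays miR-1224-5p went from 8.76 to 14.28, miR-3102-5p from 7.50 to 12.92 and miR-3102-3p from 0.48 to 6.44, while miR-3102-5p.2-5p went from 6.33 to 6.93 and miR-877-5p from 6.54 to 9.02. Most of the change of the first of these came between 48 h and 96 h, when RIN went from 2.4 to 2.3.

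In liver, the 8 arrays with RIN of 6 or lower were above the 6 intact ones by 4.18 for miR-877-5p and 2.31 for miR-3102-5p.2-5p. These 2 of the 9 arms, or 22.2%, were classed as higher at low RIN, beside 31.5% of all miRNAs. The rule, modelled on the study's, was an exact Wilcoxon-Mann-Whitney p under 0.05 and a mean difference over 1. Its p was not adjusted, whereas the study's methods name Benjamini-Hochberg adjustment, so the share is not that of the study. As miR-877-5p was chosen on this contrast, its place among the 2 arms is no result. Mean differences were 1.70 for miR-3102-5p, 1.28 for miR-6769b-5p and 0.82 for miR-1224-5p, and between -0.33 and 0.39 for the 3p arms.

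**Figure D4:**
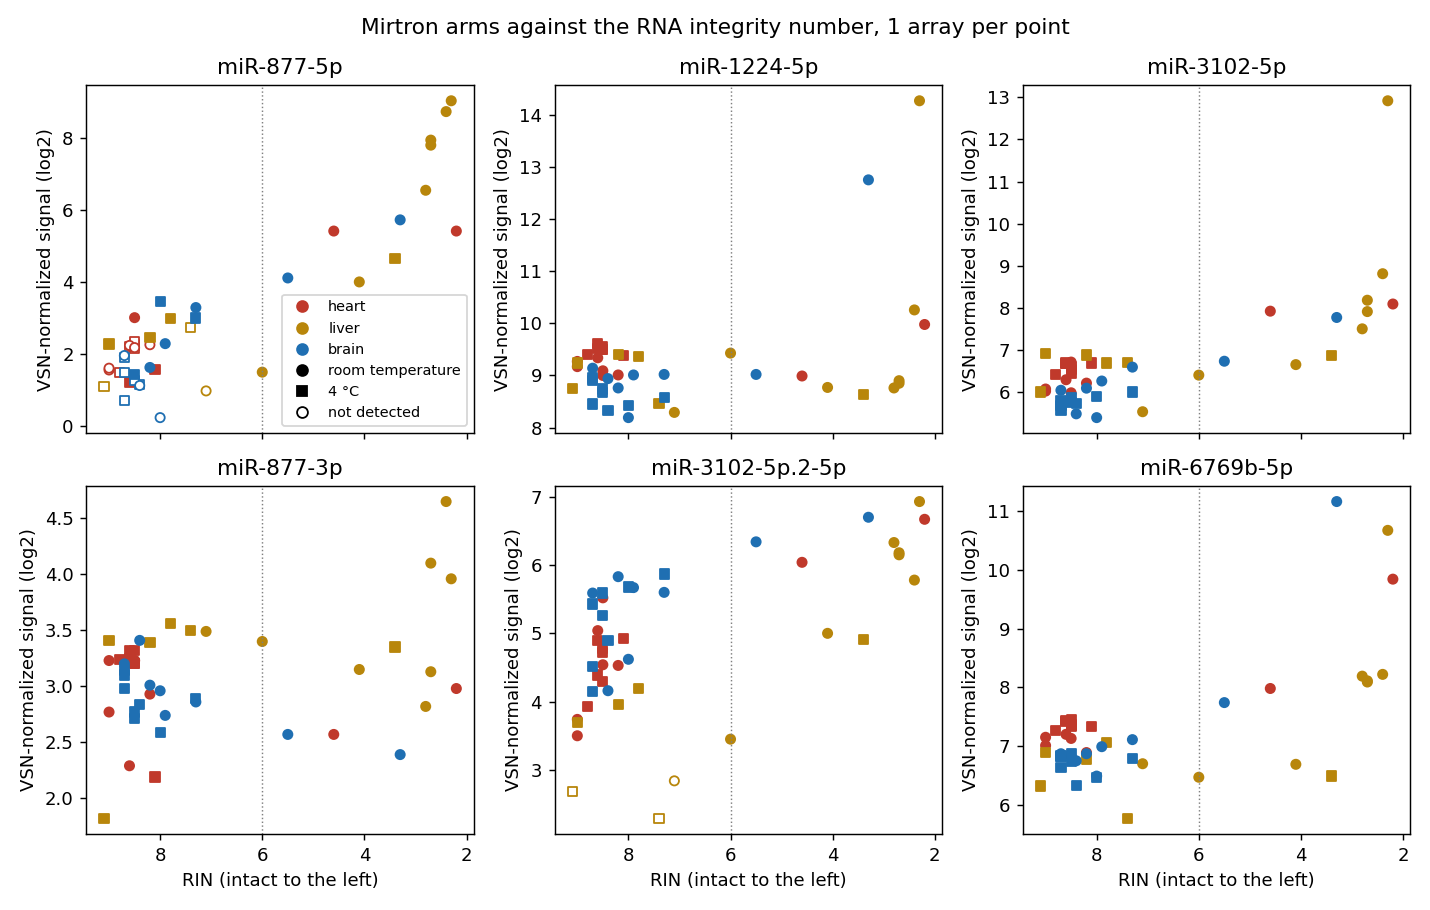
VSN-normalized log2 signal (vertical axis, its range differs between panels) of 5 5p arms and of miR-877-3p against RIN (horizontal axis, falling to the right), 1 array per point, with the limit of 6 as a dotted line. In the miR-877-5p panel the low-RIN points lie above the intact ones of each tissue with 1 exception, a liver array with RIN of 6.0, while in the miR-1224-5p panel only 5 of the 12 do.

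Each arm is read by several probes, and these moved together where the signal was high. The Spearman correlation between the probes of an arm over the 45 arrays was at least 0.90 for miR-877-5p with 4 probes and 0.98 to 1.00 for the other analysed 5p arms with 2 probes each. It was 0.93 for miR-3102-3p, 0.88 for miR-6769b-3p, 0.73 for miR-3102-3p.2-3p and at least 0.61 for miR-877-3p. For miR-1224-5p in liver at RT the background-subtracted probe signals were 41.7 and 120 units at 0 h and 19200 and 31300 units at 96 h. The 4 probes of miR-877-5p read between 315 and 358 units on that last array, and those of miR-877-3p between 8.00 and 10.9. At 0 h they had read between -0.0557 and 0.396 units and between 1.21 and 1.39 units. Before scaling between arrays, the miR-877-3p probes thus rose 5.77- to 8.65-fold in liver, and 2.20- to 2.76-fold in heart and 1.38- to 1.66-fold in brain.

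The members were set beside other lists chosen by name. Among the late-numbered miRNAs miR-6896 to miR-7119, many of which are annotated as mirtrons, 106 of 206 5p arms were analysed. Of these 106, 91 were called higher at lower RIN and 1 lower, with a median change of 2.18 per 5 RIN units lost. As the detection filter counted the low-RIN arrays, this count is partly set by it. Of 25 analysed 3p arms of that list, 9 were higher and 11 lower, with a median of -0.22. The 5 5p arms of the members had a median of 1.97 and the 4 3p arms one of -0.12. Guide strands of the let-7, miR-30 and miR-26 families, which Drosha cuts, were higher in 0 of 15 and lower in 13 of 15. Their median was -0.91, and 35.2% of all 815 miRNAs were lower. Counts and medians of these lists are given for VSN only. The median change of all miRNAs was 0.17 with VSN and 1.05 without scaling, so a fall of this size depends on the scaling.

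Base composition ran along with these counts. For 680 of the 815 analysed miRNAs a mature sequence was found in RefSeq. Of the 154 with at least 45% G, 140 (90.9%) were called higher at lower RIN, with a median change of 2.41. Of the 257 with under 25% G, 37 (14.4%) were, with a median of -0.79. The detection filter counted the low-RIN arrays, so these shares are partly set by it. They are given for VSN only, under which the median change of all 815 miRNAs was 0.17, against 1.05 without scaling. All analysed 5p members have at least 52.4% G, and the 3p members with a sequence at most 17.4%. Beside the shares of these classes stand 5 of 5 for the 5p members and 0 of 3 for the 3p members with a sequence. Among the 5p members, miR-877-5p and miR-6769b-5p prompted the list, so nothing is read from these counts. Without scaling, miR-877-3p and miR-3102-3p.2-3p were called as well. The change of miR-877-5p, 4.26, was above the median of the class with at least 45% G, and those of the other 4 5p arms, 1.11 to 2.17, were below it, the lowest being that of miR-1224-5p, among the 1.6% of analysed miRNAs richest in G. The part of base composition in the signals was not tested.

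**Figure D5:**
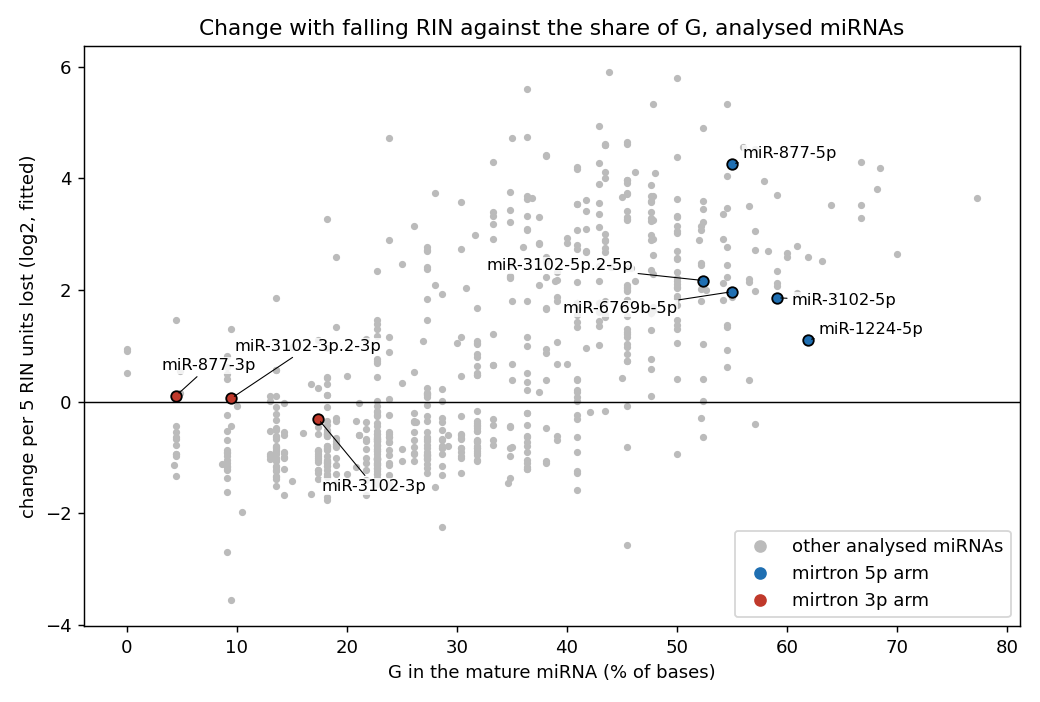
Fitted change in log2 signal per 5 RIN units lost (vertical axis) against the percentage of G in the mature miRNA (horizontal axis) for 680 analysed miRNAs, grey, with the 5p arms of the mirtrons in blue and the 3p arms in red. The blue points lie between 52.4% and 61.9% G and between 1.11 and 4.26, and the red points between 4.5% and 17.4% G and between -0.31 and 0.11.

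After the tissue mean was subtracted, the miRNAs with the course most like that of miR-877-5p over the 45 arrays were miR-149-3p (r = 0.974), miR-8109 (r = 0.972) and miR-5126 (r = 0.967). For miR-6769b-5p they were miR-7036a-5p (r = 0.960), miR-1982-5p (r = 0.888) and miR-135a-1-3p (r = 0.882). These correlations share slides, animals and RIN and carry no p. Sequences of the nearest miRNA of each, with the seed in capitals, are shown for their composition, with 68.2% and 56.5% G.

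mmu-miR-149-3p: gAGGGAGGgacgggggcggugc
mmu-miR-7036a-5p: aGCGGGGUucgguggggaagaga

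Among the members themselves, miR-877-5p was closest to miR-3102-5p.2-5p (r = 0.89) and miR-1224-5p to miR-6769b-5p (r = 0.83), while the arms of miR-877 had r = 0.21 and those of miR-6769b r = -0.40.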

How the data were processed

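Total RNA was isolated without DNase treatment and hybridised to 1-colour Agilent mouse miRNA arrays. The authors deposited the scanner output of Agilent Feature Extraction, whose background-subtracted intensity values and detection flags were used, and a table of log2 values that the authors had normalized by VSN. The signal of a miRNA was its total gene signal on arrays that flagged it as detected; elsewhere the signals of its probes were added up. VSN was fitted anew over 45 arrays; over 46 arrays it differed from the deposited log2 table by at most 0.00166.

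Where a miRNA was detected, the total gene signal could leave out undetected probes, so a dim arm could step down as it became detected. The largest differences from summed probe signals were -1.18 (miR-877-5p), -1.21 (miR-877-3p), -0.76 (miR-6769b-3p), -0.57 (miR-3102-3p.2-3p) and -0.53 (miR-3102-3p). For the other analysed 5p arms they were -0.01. Summed signals, and log2(hours + 1) in place of hours, were added as alternatives after the data were seen, as was temperature, and so animal, as a fixed block in the tissue comparison.

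Models were fitted with limma 3.58.1 in R 4.3.3 to the 815 analysed miRNAs, with Benjamini-Hochberg adjustment over all of them and calls under 0.05; the consensus correlation within slides was 0.0197. Time and RIN were slopes with tissue as a block. Liver was compared by the exact 2-sided Wilcoxon-Mann-Whitney test, whose p was not adjusted. On simulated arrays the fits recovered the largest planted slope on hours at 4 °C and a large planted tissue difference. Time at RT and RIN were not simulated, and the simulation cannot tell animal, slide and temperature apart. Alternatives were the authors' table, 75th percentile scaling, no scaling (pseudocount 1), quantile normalization, normexp on the spot median and background signals, other detection filters, the heart array that was set aside, and changes of model, adjustment and arrays. All members are named, with the 3 nearest miRNAs of miR-877-5p and miR-6769b-5p. Members and lists were chosen with earlier results of these data known.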

Additional observations from a re-analysis of the deposited data

Results flagged for a closer look

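On the 8 liver arrays with RIN of 6 or lower, the RT array of 96 h stood apart from the other 7 for 4 arms: miR-1224-5p at 14.28, miR-3102-5p at 12.92, miR-3102-3p at 6.44 and miR-6769b-5p at 10.67, each past Dixon's 95% limit for the gap to its nearest neighbour. These 4 flags come from 1 array, in a group that spans 1 h to 96 h of storage and took part in the choice of the members, so they are a description and not independent of each other. On the 6 intact liver arrays, miR-877-3p at 4 °C and 0 h stood apart, at 1.82; with summed probe signals it was at 3.02. Chance flags about 1 in 20 groups of independent samples, which these 18 groups are not.

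The slopes of miR-877-5p on hours at 4 °C differed between tissues (limma, adjusted p = 0.0231), with the liver array of 48 h among those the arm was chosen on.

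Outside the comparisons, miR-1981-5p was detected on 4 arrays: brain at 4 °C at 0 h and 3 h (2.05 and 1.82), brain at RT at 1 h (2.72) and liver at RT at 96 h (3.65). Its other brain values lay between 0.39 and 1.47 and its heart values between -3.66 and -1.10.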

How the results depend on the processing

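Counts of arms called were within 1.5 times their main value except as follows. For time at 4 °C, 2 arms became 1 with the heart array of 0 h, with Bonferroni adjustment and with Pearson's r pooled over tissues. For time at RT, 5 became 8 without scaling, where the added arms were all 3p arms, and 3 with pooled r. For RIN, 5 became 8 without scaling, again by 3p arms, and 0 on intact arrays (limma, 3 at an unadjusted p under 0.05). In liver 2 became 7 without scaling, with miR-877-3p and miR-3102-3p.2-3p among those added. The 1 arm whose slopes at 4 °C differed between tissues became 0 by limma with the heart array of 0 h and with summed probe signals, where 0 and 3 of 9 had an unadjusted p under 0.05. With quantile normalization miR-877-5p lost this call and another arm, miR-3102-5p, gained one. Of 424 values of single arms under the alternatives, 381 kept their direction and call, 32 lost the call and 11 changed direction; the cause was not tested.

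On intact arrays the RIN slope changed sign for miR-1224-5p (0.166 per RIN unit) and miR-6769b-5p (0.00244). Liver minus heart changed sign for miR-1224-5p (0.284 with 75th percentile scaling, 0.738 with quantile normalization), miR-6769b-5p (0.0731 and 0.685) and, without scaling, miR-3102-3p.2-3p (-0.0527). Brain minus heart did so with quantile normalization for miR-3102-5p.2-5p (-0.224) and miR-3102-3p (-0.556), and brain minus liver without scaling for miR-3102-5p (0.0233) and miR-3102-3p.2-3p (0.223).

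The set-aside heart array (RIN 8.8) held miR-3102-5p at 3.88 and miR-6769b-5p at 4.68, below all intact heart arrays. Over all miRNAs, the 96 called for time at 4 °C became 8 with pooled r, 17 with Bonferroni adjustment, 161 without scaling, 172 with quantile normalization and 205 on log2(hours + 1). The 636 called for time at RT became 100 with pooled r and 252 with Bonferroni adjustment, the 661 called for RIN became 296, 410 and, on intact arrays, 2, and the 61 whose slopes differed became 2 with the heart array. All samples carry the same replicate number, so the labels name no pairs, but by the study's methods the tissues of a temperature share an animal. With temperature, and so animal, as a fixed block, an alternative added after the data were seen, 6 of 9 arms differed between tissues, and every called difference between 2 tissues kept its direction and call. Arms near the detection limit, mainly the 3p arms and miR-877-5p in intact tissue, have the least certain values.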
